A study of Rattus norvegicus with 92 samples.

Results

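The rows described here are the transcripts whose mean level lay on one side of the air mean in every one of 8 rat tissues after acrolein was inhaled. They are 76 of the 9118 rows that met a level limit, out of 20508 rows per tissue table. On the higher side with acrolein were 28 rows, and 48 were on the lower side. A row was kept when its mean was at least 2 CPM, its share of a library's counts scaled to a total of 1000000, in all 8 tissues. The ratio of the acrolein mean to the air mean then had to lie on the same side of 1 in all 8, and past 1.1 (or under its inverse) in at least 4. The air and acrolein ranges also had to overlap in liver and in nasal epithelium, so that rows that separated the groups in either of those tissues were left out. These ratios chose the rows, and the values of the contrast given below are therefore a description with no test. A mean on one side is not a call: limma called none of the 76 in any tissue, edgeR 1 and DESeq2 4, and their backgrounds are given with those counts.

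Male Wistar-Kyoto rats, 12 to 13 weeks old, breathed either filtered air (0 ppm) or acrolein through the nose for 4 h. The acrolein concentration climbed to 1 ppm in steps of 7.5 min that took 30 min, and then stood at 3.16 ppm for 3.5 h, and tissues were taken within 2 h of the end. Both groups were restrained in nose-only tubes, so restraint is shared by the controls. Samples numbered 5 air and 6 acrolein for nasal epithelium, 8 and 6 for lung, 5 and 6 for liver, 6 and 4 for adrenal gland and 5 and 4 for adipose tissue, and 6 and 6 for each of muscle, hippocampus and hypothalamus. One adipose air sample, number 8, was the average of 2 libraries. The labels number samples within groups without saying that a number stands for one rat across tissues.

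Acrolein is a reactive unsaturated aldehyde found in smoke and vehicle exhaust, and it stimulates sensory nerve endings in the nose and airways. Inhaled irritants of this kind are known to activate sympathetic nerves and the hypothalamus-pituitary-adrenal axis, which releases glucocorticoids from the adrenal cortex. The glucocorticoid receptor is present in nearly all cell types and raises some transcripts while lowering others, so whether any transcript moves the same way in many tissues is a natural question to ask of these samples. The tables name rows only by Ensembl transcript or gene identifier, and the reference used here did not pair those identifiers with symbols, so no row could be given a gene name, a genome position or a function. Lists of glucocorticoid-responsive, clock, immediate early and oxidative stress genes and the tissue and blood markers were for the same reason not examined. Of the 28 higher-side rows none had a gene identifier and of the 48 lower-side rows 5 had one, against 223 of the 9118 rows (2.45%).

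The libraries held between 2513375 and 30194066 reads (median 15694239), recovered from the deposited normalised counts. All 92 libraries lay nearest to the median profile of their own labelled tissue. The paper reports removing liver samples that did not cluster by tissue, so the liver libraries may already have been screened for this. With CPM, the median log2 ratio over the 9118 rows was not 0 in every tissue. It was -0.13 in adrenal and -0.12 in muscle, and between -0.06 and 0.05 in the other 6 tissues. Lower-side rows in those tissues are read against that shift: 39 of the 48 in adrenal and 36 of the 48 in muscle lay below the median of all rows. In hippocampus, where the median of all rows was 0.05, 21 of the 28 higher-side rows lay above it. Since each sample is a piece of tissue, fewer cells of a type and less RNA per cell cannot be told apart in any of these values.

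Agreement over all 8 tissues was the rare end of a spread that peaked in the middle. Of the 9118 rows, 2636 were above 1 in exactly 4 tissues, 266 in exactly 7 and 45 in all 8 (0.494%). At the other end, 398 were above 1 in exactly 1 tissue and 55 in none (0.603%). After the conditions on size and overlap, the higher-side set was 0.307% of the 9118 rows and the lower-side set 0.526%. How many rows would pass if the group labels carried no information was not tested.

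The shifts were small. Averaged over the 8 tissues, the log2 ratio of the higher-side rows had a median of 0.23 and ran from 0.15 to 0.62, and only 2 of the 28 reached 0.5. Among the lower-side rows the median was -0.25, the range was -0.78 to -0.10, and 3 of the 48 were at least 0.5 below 0. A mean ratio past 1.2 was found for 12 of the 28 and 20 of the 48. A ratio past 2 in at least 1 tissue occurred in 3 higher-side rows and 7 lower-side rows. Only 1 higher-side row and 3 lower-side rows passed the limit of 1.1 in all 8 tissues. The most frequent number of tissues past the limit was 6, for 11 and 13 rows respectively. For 12 of the 28 and 24 of the 48, the tissue with the smallest shift had a ratio within 1.02 of 1.

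**Figure D1:**
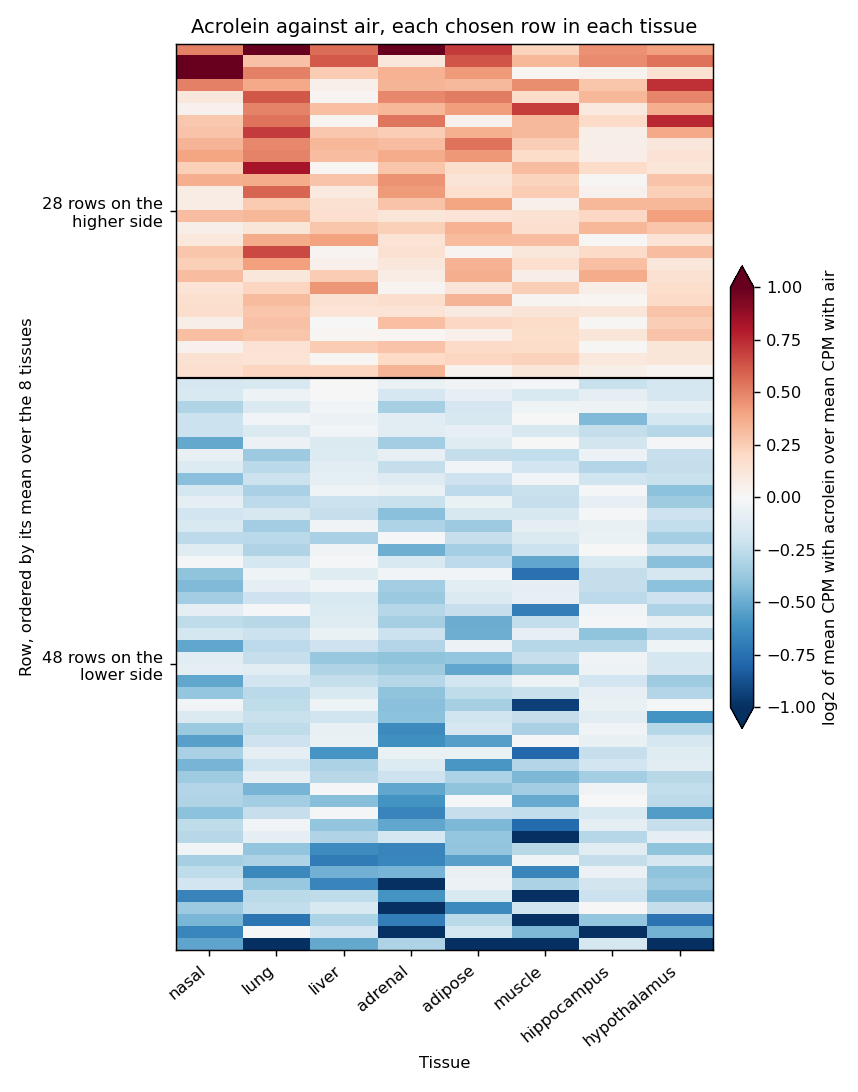
Log2 ratio of the acrolein mean CPM to the air mean CPM for the 76 chosen rows (vertical axis, ordered by their mean over tissues) in the 8 tissues (horizontal axis); the colour scale is cut at 1 and -1. The black line parts the 28 higher-side rows from the 48 lower-side rows, and near-white cells, frequent in liver and hippocampus, are ratios close to 1.

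Tissues did not share evenly in the shift. On CPM as scaled, the lung had the largest median among the higher-side rows, a log2 ratio of 0.37, and 25 of the 28 passed 1.1 there, beside 36.7% of all rows at the level limit. The hippocampus had the smallest, 0.11, with 12 of 28 past 1.1 beside 39.9%. In between, the medians were 0.32 in adipose tissue, 0.28 in adrenal, 0.26 in hypothalamus, 0.24 in nasal epithelium, 0.19 in liver and 0.18 in muscle. Relative to the median of all rows in each tissue, however, the largest was adrenal, at 0.41, with lung and adipose tissue both at 0.33, and hippocampus was again the smallest, at 0.06. Among the lower-side rows, the median was furthest from 0 in adrenal, at -0.34, and nearest in hippocampus, at -0.13, and in liver, at -0.15. Relative to all rows it was furthest in hypothalamus, at -0.30, and nearest in muscle, at -0.12, with adrenal at -0.21. In hypothalamus, 40 of the 48 lower-side rows passed the limit, beside 26.2% of all rows. Adrenal had 38 beside 48.7% and adipose tissue 35 beside 33.6%. The hippocampus had 24 of 48 beside 25.2%, and the liver 26 of 48 beside 36.4%. Those counts are partly fixed by the rule and nothing is read from them.

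Against the spread between samples these ratios were mostly small. In each tissue, between 20 and 26 of the 28 higher-side rows had a log2 ratio smaller in size than their own standard deviation within groups. For the lower-side rows that count was between 26 of 48 in adrenal and 43 of 48 in adipose tissue. The median within-group SD over the higher-side rows ran from 0.36 in liver to 0.49 in adipose tissue on the log2 scale, and over the lower-side rows from 0.31 in liver to 0.52 in adipose tissue. None of the 28 had separate air and acrolein ranges in any tissue. Of the 48, a single row had separate ranges, in muscle only, where 0.0439% of the rows at the level limit were lower with no overlap. The share of all rows that were higher with no overlap was 1.52% in liver, 0.812% in adipose tissue, 0.768% in nasal epithelium and 0.241% in adrenal. It was 0.0548% in hypothalamus, 0.0439% in hippocampus and 0.011% in lung and in muscle. The share lower with no overlap was 1.39% in liver, 0.976% in adrenal, 0.351% in nasal epithelium, 0.274% in adipose tissue, 0.0658% in hippocampus, 0.0439% in lung and 0 in hypothalamus. In liver and nasal epithelium the rule itself set the count of members to 0.

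By limma on log2(normalised count + 1), where a call needed a Benjamini-Hochberg adjusted p no larger than 0.1 and a change past 1.2-fold either way, 0 of the 28 and 0 of the 48 rows were called in any tissue. The share of all tested rows called was 0.591% higher and 0.0591% lower in nasal epithelium, 0.197% and 0.17% in liver, and 0.00499% higher in lung with none lower there. In adrenal, adipose tissue, muscle, hippocampus and hypothalamus no row of any kind was called. At an unadjusted p under 0.05, the higher-side rows numbered 6 in lung, beside 4.38% of all tested rows higher at that p. Nasal epithelium had 3 (6.86%), adrenal 3 (3.32%), adipose tissue 2 (1.21%), muscle 1 (1.04%) and liver 1 (10.3%). Hippocampus and hypothalamus had 0 (2.15% and 0.97%). Lower-side rows numbered 5 in liver, beside 8.88% of all tested rows lower. Hypothalamus had 4 (1.72%), nasal epithelium 3 (5.37%), lung 3 (3.29%), adrenal 3 (4.22%), muscle 2 (1.95%), hippocampus 1 (2.16%) and adipose tissue 0 (1.5%). On the recovered reads, edgeR called 1 higher-side row in nasal epithelium (0.513% of all rows) and no other row of either set. DESeq2 called 1 higher-side row there (1.51%) and 3 lower-side rows in liver (4.44%). The rule used the same contrast, so these counts are no evidence about the rows.

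The largest higher-side row was ENSRNOT00000085251, with a mean log2 ratio of 0.62, and it was the only one on that side past 1.1 in all 8 tissues. Its level was highest in adrenal gland. There the 6 air samples had a lowest value of 41.1, a median of 92.7 and a highest of 327 CPM, and the acrolein samples had 125, 158, 284 and 489 CPM. Both groups covered a wide range and overlapped, because 1 air sample (number 8) exceeded 3 of the 4 acrolein samples. The means were 123 ± 104 (SD, n = 6) and 264 ± 165 CPM (SD, n = 4), a ratio of 2.15 that became a log2 ratio of 0.62 in place of 1.101 without acrolein sample 12.

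In lung the same row had a lowest value of 8.73, a median of 15.05 and a highest of 24.7 CPM over 8 air samples, and 13.9, 29.2 and 58.5 CPM over 6 acrolein samples. All but 1 of the acrolein samples lay above every air sample, and that one lay below the air median. The lung means were 15.5 ± 5.78 (SD, n = 8) and 31.4 ± 14.6 CPM (SD, n = 6), a ratio of 2.02. In adipose tissue the air samples had 25.3, 38.6, 49.4, 50.8 and 81.6 CPM and the acrolein samples 56.9, 78.8, 89.4 and 93.9 CPM. Only 1 air sample reached into the acrolein range there. Its smallest shift was in muscle, with a log2 ratio of 0.22 that turned to -0.02 without acrolein sample 10. Liver was its lowest tissue, at 1.77 ± 1.37 CPM with air (SD, n = 5) and 2.60 ± 1.303 CPM with acrolein (SD, n = 6), close to the level limit.

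The second higher-side row, ENSRNOT00000031025, had a mean log2 ratio of 0.52 and its highest level in lung. Its largest shift was in nasal epithelium, where the air samples had 4.93, 5.88, 11.9, 20.1 and 26.7 CPM. Over the 6 acrolein samples there, the lowest value was 7.03, the median 26.7 and the highest 59.2 CPM. Of the acrolein samples, 3 lay above all air samples and the others lay among them. The means were 13.9 ± 9.36 (SD, n = 5) and 31.7 ± 21.2 CPM (SD, n = 6), a ratio of 2.28. In liver all 6 acrolein samples were above the air median, with means of 11.1 ± 3.81 (SD, n = 5) and 16.95 ± 3.96 CPM (SD, n = 6). In adrenal the shift was a log2 ratio of only 0.11, and it turned to -0.05 without acrolein sample 9.

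By group medians in place of means, both of these rows stayed above 1 in all 8 tissues. That held for 6 of the 28 higher-side rows and 8 of the 48 lower-side rows. It did not hold for the 2 largest lower-side rows.

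ENSRNOT00000009879 had the largest lower-side shift, a mean log2 ratio of -0.78. In adipose tissue its air samples had 9.40, 9.53, 11.8, 12.9 and 144 CPM, and its acrolein samples 8.25, 13.7, 13.8 and 17.1 CPM. All air samples but 1 lay below 3 of the 4 acrolein samples, and the averaged sample 8 carried the air mean to 37.6 ± 59.7 CPM (SD, n = 5). Without that sample the log2 ratio in adipose tissue was 0.28 instead of -1.51. In lung the lowest, median and highest air values were 9.93, 24.2 and 151 CPM and those with acrolein 7.95, 13.5 and 28.6 CPM. Leaving out lung air sample 2 changed the log2 ratio there from -1.25 to -0.41, so the side was kept and the size was not. In hypothalamus no single sample stood far out: the air samples ran from 12.4 to 64.3 CPM with a median of 48.2, and the acrolein samples from 14.7 to 27.6 CPM with a median of 20.996. All 6 acrolein samples were below the air median there, and the means were 42.3 ± 20.8 and 21.1 ± 6.50 CPM (SD, n = 6 each).

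ENSRNOT00000085762 was the second lower-side row, with a mean log2 ratio of -0.60. It was the most unevenly distributed of the 4 rows described singly, at 3996 ± 512 CPM in air adipose tissue (SD, n = 5), 1208 ± 198 in air liver (SD, n = 5) and 5.95 ± 12.3 in air hippocampus (SD, n = 6). In hippocampus the lowest air value was 0.46, the median 0.86 and the highest 31.1 CPM, against 0.54, 1.44 and 3.50 CPM with acrolein. In this tissue 5 of the 6 acrolein samples were above the air median, and air sample 2 alone put the mean on the lower side. It also alone carried the row past the level limit of 2 CPM, since the mean over hippocampus samples of both groups was 3.79 CPM with it and 1.304 CPM without it. The log2 ratio there was -1.88 with that sample and 0.81 without it. In muscle it was -0.45, and 0.25 without air sample 5, whose 143 CPM stood against 41.3 for the next. In lung the means were 581.5 ± 84.4 (SD, n = 8) and 581.4 ± 153 CPM (SD, n = 6), which is a log2 ratio of -0.00017 and the smallest of any chosen row. In adrenal, in contrast, all 4 acrolein samples (26.8, 40.6, 92.1 and 114 CPM) lay below the air median of 164 CPM, with 2 of the 6 air samples among them.

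**Figure D2:**
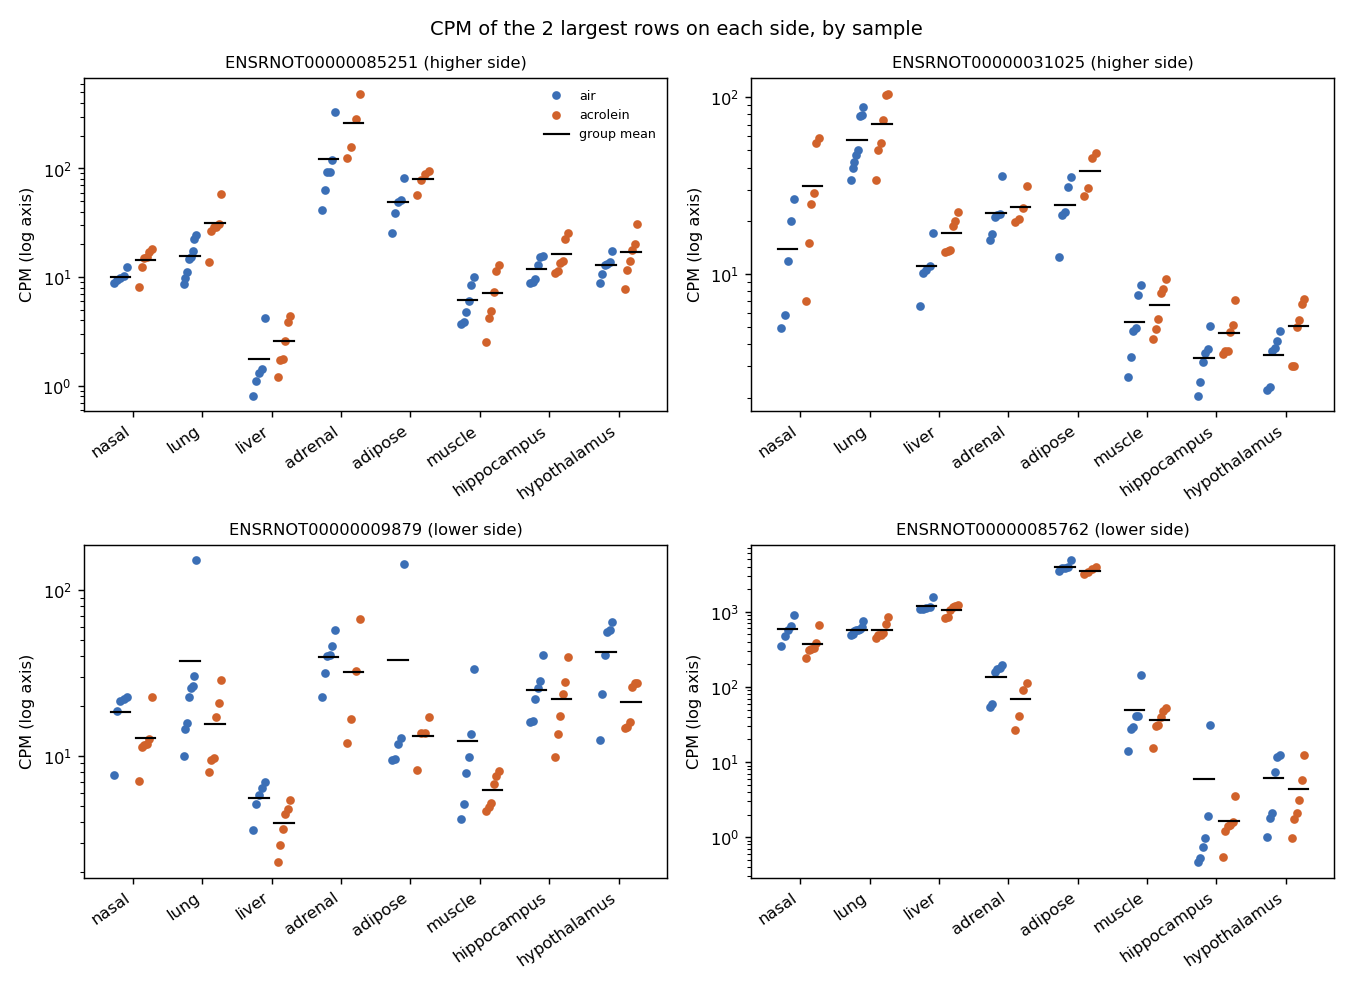
CPM (vertical log axis) in each air and acrolein sample of the 8 tissues for the 2 rows with the largest mean shift on each side; bars are group means. In both lower-side rows single air samples stand far above the rest, as at 144 CPM in adipose tissue for ENSRNOT00000009879 and at 31.1 CPM in hippocampus for ENSRNOT00000085762.

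Near the limits, members and non-members had much the same values. The higher-side row that only just passed had a fourth-largest ratio of 1.1005, and the row just outside one of 1.09996. On the lower side the inverse ratios were 1.103 inside and 1.099 outside. The 4 higher-side rows past the limit in exactly 4 tissues had a median mean log2 ratio of 0.15, and the 10 rows outside with exactly 3 had 0.13. For the lower-side rows those medians were -0.18 (11 rows) and -0.15 (5 rows). The lowest tissue mean among higher-side rows was 2.22 CPM, and the nearest row under the level limit that met the other conditions had 1.98 CPM. On the lower side the values were 2.17 and 1.91 CPM. Below the level limit, 36 higher-side and 60 lower-side rows met the other conditions.

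The condition on overlap removed 4 rows on the higher side and 1 on the lower side. Of the 4, 1 had separate ranges in liver and 3 in nasal epithelium. Their mean log2 ratios over the 8 tissues were 0.79, 0.69, 0.57 and 0.44, so 2 of them exceeded the largest member. The lower-side row left out, with separate ranges in nasal epithelium, had -0.31.

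Each sample was given a score, the mean over the rows of log2(CPM + 1) minus the air mean of its tissue. The higher-side score was larger on average with acrolein in all 8 tissues, as the choice of rows requires, by 0.13 in hippocampus to 0.39 in lung. The lower-side score was smaller by 0.16 in hippocampus to 0.38 in adrenal. Air and acrolein ranges of both scores overlapped in every tissue. In liver the lowest of the acrolein samples had a higher-side score of 0.03 and the highest of the air samples 0.14. In muscle the lower-side score ran from -0.42 to 0.42 over air samples and from -0.45 to -0.10 over acrolein samples. The same score over all 9118 rows moved the same way there, from -0.25 to 0.35 with air and from -0.17 to -0.04 with acrolein, a mean difference of -0.11, with air samples 5 and 8 at 0.35 and 0.26. In adrenal the score over all rows was also lower with acrolein, by a mean difference of -0.13. How much of the lower-side scores in those tissues follows all rows was not tested.

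Adipose tissue showed most plainly how a single sample could place a mean. Of the 5 air samples, number 8 had a lower-side score of 0.85, and the other 4 ran from -0.30 to -0.08. The 4 acrolein samples, at -0.60, -0.10, -0.03 and 0.06, were not below those 4 as a group. The libraries averaged into sample 8 gave nearly the same lower-side score, 0.853 and 0.848, at 2513375 and 9662912 reads, so the deviation was not particular to the shallow library. Without sample 8, 26 of the 48 lower-side rows were no longer on the lower side in adipose tissue, and the median log2 ratio there moved from -0.23 to 0.03. On the higher side, adipose acrolein sample 14 scored 0.82 and the other 3 between -0.11 and 0.19. Leaving it out took 15 of the 28 rows off their side in that tissue. In adrenal, acrolein sample 10 scored 0.81 against -0.14, 0.08 and 0.28 for the others, and without it 13 of the 28 changed side there.

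**Figure D3:**
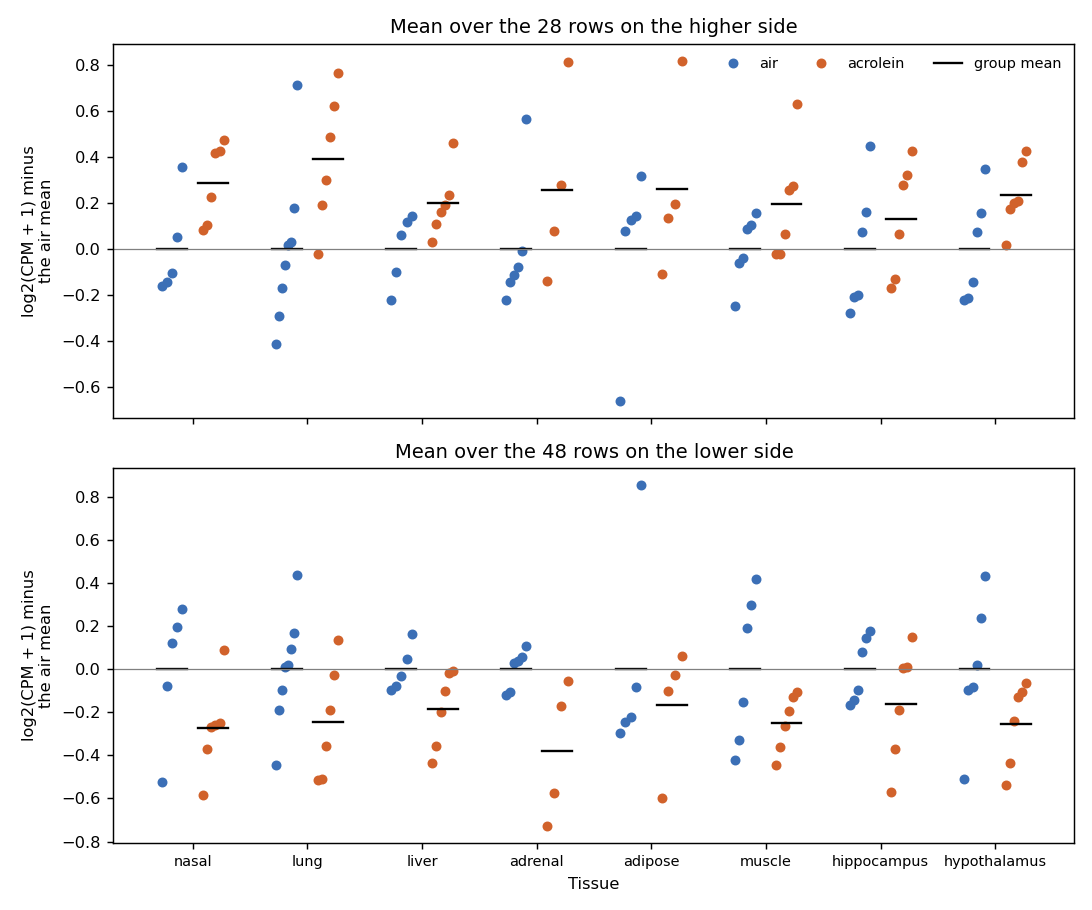
Score of each sample, the mean over the 28 higher-side rows (upper panel) or the 48 lower-side rows (lower panel) of log2(CPM + 1) minus the air mean of the tissue; points are samples and bars group means. The adipose air sample at 0.85 in the lower panel and at -0.66 in the upper stands apart from the other 4 air samples.

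When one sample at a time was left out of all steps, the higher-side set held between 12 and 57 rows and the lower-side set between 23 and 73. No row of either set was chosen in all 91 of those runs. A higher-side row was chosen in a median of 83.5 runs (71 to 89), and 22 of the 28 in at least 80. For lower-side rows the median was 84 runs (64 to 90), and 40 of the 48 reached 80. The sets turned on a few samples. Without adipose air sample 8, 23 lower-side rows were chosen, 20 of them among the 48. Without adipose acrolein sample 14, the 12 higher-side rows chosen were all among the 28. Without hippocampus air sample 2 the higher-side count rose to 57, and without hippocampus acrolein sample 14 the lower-side count rose to 73. The others that moved the higher-side count past 1.5 times were adrenal acrolein 10 (15 rows without it), hippocampus acrolein 11 (17) and adipose air 1 (43).

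**Figure D4:**
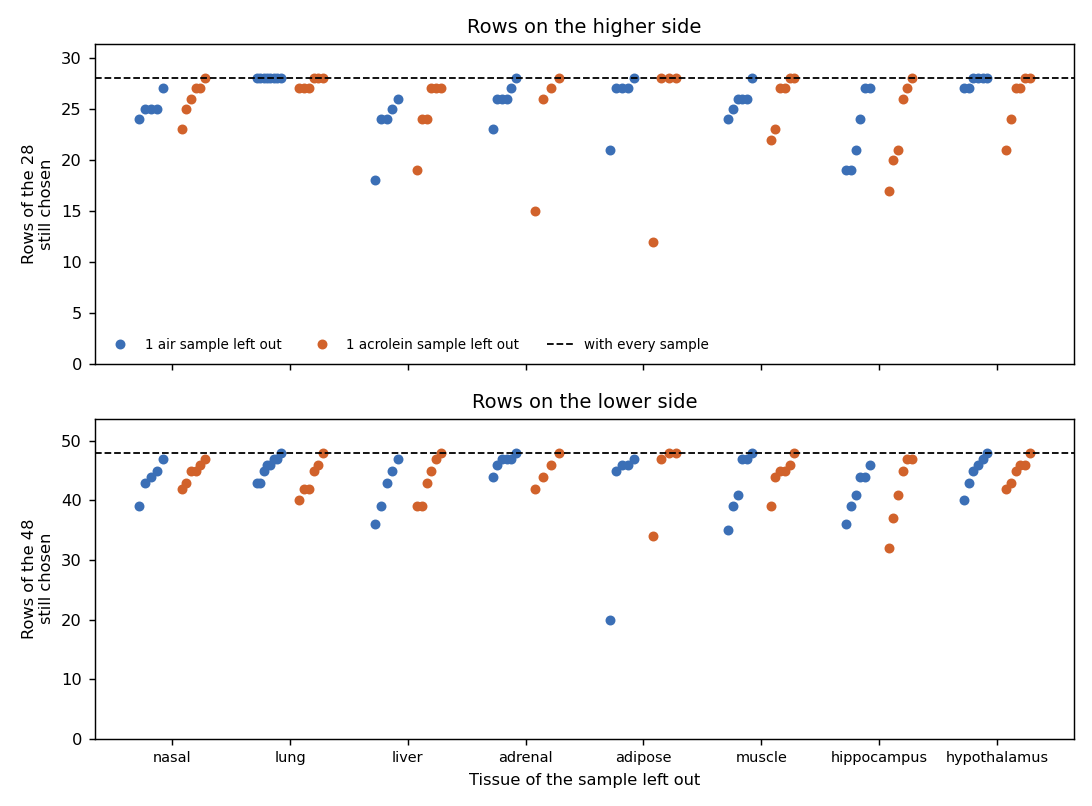
Number of the 28 higher-side rows (upper panel) and the 48 lower-side rows (lower panel) still chosen when the sample shown is left out, by the tissue and group of that sample; the dashed line is the number with all samples. The lowest points are adipose acrolein sample 14 with 12 rows and adipose air sample 8 with 20 rows.

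The scale of the values also decided which rows were chosen. On the deposited normalised counts, in which the median log2 ratio of all rows lay between -0.01 and 0.03 in every tissue, 48 higher-side and 40 lower-side rows were chosen, of which 16 and 26 were among those from CPM. With TMM-scaled library sizes the counts were 50 and 38, with 16 and 24 shared. The balance between the sides thus turned over, from 28 against 48 to 48 against 40 or 50 against 38. On all 3 scales, 13 higher-side and 24 lower-side rows were chosen, and none of these was kept with each sample left out in turn. On the deposited counts, most lower-side rows that left their side did so in muscle (12 rows) and adrenal (7), the tissues with the negative overall shift. Of the higher-side rows, 10 left their side in hippocampus.

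Rows were also chosen by applying the conditions on side, size and overlap to 7 tissues at a time. Their side in the remaining tissue, whose ratio had no part in the choice, was then read. The level limit still used every tissue, the one left out included, so its values were not wholly outside the choice. A single sample can carry a row past that limit and also set its side, as hippocampus air sample 2 did for ENSRNOT00000085762. How the shares change with the level limit on 7 tissues was not tested. The lists share most tissues with each other, and samples of several tissues can come from the same rats. The tissues are therefore not independent, and the values are counts without a test. The rows are not independent either. In the sets chosen from all tissues, the mean correlation within groups (Pearson r) was 0.30 between higher-side rows and 0.34 between lower-side rows. It was -0.21 across the sides and 0.06 over all rows at the level limit. A few samples can move many rows together, so a count of rows is not a count of separate agreements. That r was not taken for the lists from 7 tissues. In lung, 25 of the 29 rows chosen for the higher side (86.2%) were above 1, and 55.4% of all rows at the level limit were. In hypothalamus the count was 26 of 29 (89.7%) beside 57.0%, and in adrenal 25 of 39 (64.1%) beside 32.0%. Muscle gave 26 of 48 (54.2%) beside 30.9%. Nasal epithelium and adipose tissue were close to all rows, at 49.1% beside 43.3% and 55.1% beside 48.6%.

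Rows chosen for the lower side were below 1 in 41 of 53 cases in hypothalamus (77.4%, beside 43.0% of all rows), in 44 of 60 in lung (73.3%, beside 44.6%) and in 42 of 47 in adrenal (89.4%, beside 68.0%). Nasal epithelium had 78.8% beside 56.7%, muscle 84.0% beside 69.1% and adipose tissue 64.2% beside 51.4%.

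Liver and hippocampus went the other way on both sides. In liver, 28 of 79 rows chosen for the higher side (35.4%) were above 1 beside 50.3% of all rows, and 46 of 191 chosen for the lower side (24.1%) were below 1 beside 49.7%. Their median log2 ratio in liver was 0.25 for the rows that were lower elsewhere and -0.13 for the rows that were higher elsewhere. Hippocampus gave 28 of 85 (32.9%) beside 57.5% and 42 of 134 (31.3%) beside 42.5%. Single samples of these tissues moved the sets chosen from all 8 tissues. With 1 hippocampus sample left out, the higher-side set held from 17 to 57 rows and the lower-side set from 35 to 73. With 1 liver sample left out, they held from 19 to 42 and from 36 to 57. Without the 2 livers whose column names begin with a capital, both air samples, they held 52 and 71. How the shares given here change without those samples was not tested. With the deposited normalised counts, and with a size limit of 1.2, the same 6 tissues lay above and the same 2 below the share of all rows on both sides. Those were the only alternatives applied to this reading, and no sample was left out of it. Over the 8 tissues together, 212 of 413 choices for the higher side (51.3%) and 341 of 654 for the lower side (52.1%) were on the same side in the tissue left out, where the shares of all rows, weighted in the same way, were 47.5% and 50.7%.

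**Figure D5:**
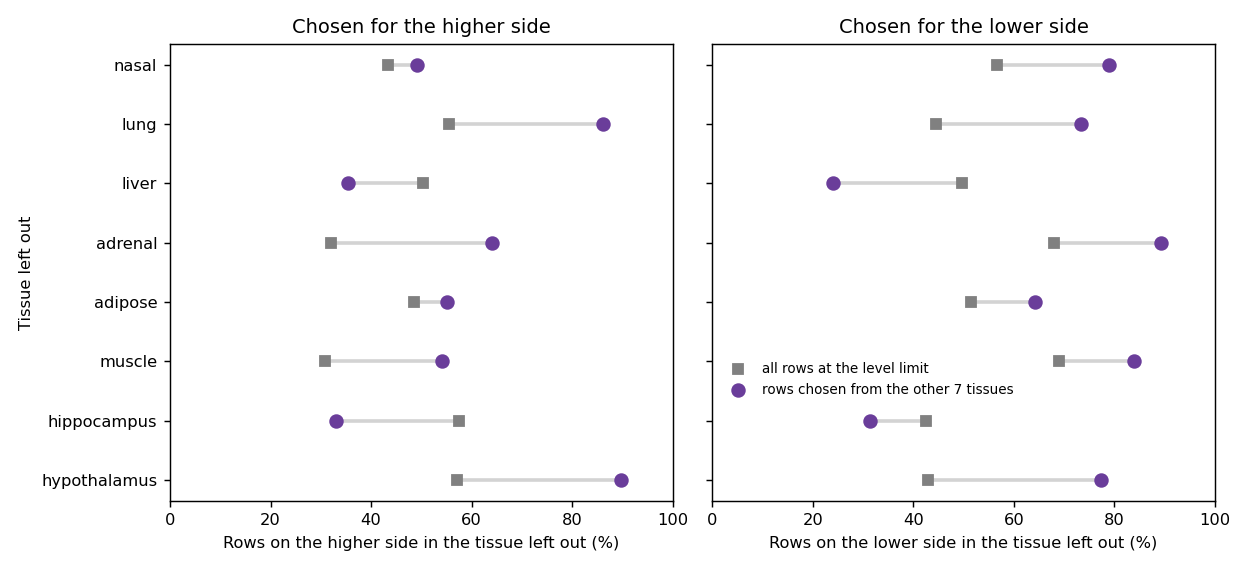
Share of rows on the given side of 1 in the tissue left out (horizontal axis, percent). Circles are rows chosen by their ratios in the other 7 tissues, and squares are all rows at the level limit. That limit covered every tissue, the one left out included. Circles lie to the right of squares in 6 tissues and to the left in liver and hippocampus, in both panels.

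Averaged over tissues by sample number, the higher-side score ran from -0.10 to 0.15 over the 8 air numbers and from 0.03 to 0.35 over the 8 acrolein numbers. The lower-side score ran from -0.15 to 0.13 and from -0.33 to -0.01. Both ranges overlapped through acrolein number 16 alone, which was present in 1 tissue. Over the other 7 acrolein numbers the higher-side score began at 0.17 against a highest air score of 0.15, and the lower-side score ended at -0.17 against a lowest air score of -0.15, so without number 16 the ranges parted. The rows were chosen on these samples for a difference in this direction, and nothing is read from the split.

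Levels across tissues were described from the air samples. Within a row, the air mean CPM of the highest tissue was a median of 2.95 times that of the lowest among the 28 higher-side rows, 7.44 times among the 48 lower-side rows and 5.55 times among all 9118. The highest tissue was lung for 7 (25%), adrenal for 7 (25%) and nasal epithelium for 6 (21.4%) of the 28, beside 18.6%, 16.9% and 13.8% of all rows. Lower-side rows were highest in adipose tissue and in hippocampus for 9 each (18.8%), beside 10.5% and 11.7% of all rows. With the mean of both groups in place of air, lung and adrenal were highest for 8 higher-side rows each and nasal epithelium for 4, and the medians of highest over lowest were 3.12, 7.24 and 5.49 times. The air mean is also the denominator of the ratio that chose the rows, so these levels are a description.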

How the data were processed

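Poly(A) RNA from 8 tissues was sequenced in 92 libraries. Per the labels and the study's methods, the authors aligned reads to rn7 with Ensembl release 105 in Partek Flow, used an integrity number limit of 7 for RNA, and deposited 1 table per tissue of counts divided by DESeq2 size factors (a normalised signal, not raw counts; R 4.1.3). Dividing each column by its smallest value above 0 gave whole reads for at least 99.96% of values in every library (tolerance 0.01), and those reads served edgeR, which called 112 rows in nasal epithelium, 6 in lung, 287 in liver and 0 elsewhere, and DESeq2, which called 452, 95 and 1699 there, 18 in adrenal, 6 in muscle, 1 each in adipose tissue and hypothalamus and 0 in hippocampus. Depth, 2513375 to 30194066 reads per library, limits the precision of low rows.

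Here values were scaled to CPM after averaging the adipose air pair numbered 8, and the rule was applied in Python 3.11.15. Members, lists and tests were chosen with earlier results of these data known. Rows were named as the 2 largest on each side by mean log2 ratio, plus those nearest each limit (given without identifiers). Within each tissue, limma 3.58.1 was fitted on log2(value + 1), with edgeR 4.0.16 and DESeq2 1.42.0 (R 4.3.3) as alternatives. Whether samples came from separate rats in each tissue is given only by their numbers. The p-values therefore set the difference between groups against the spread of these samples within groups. Scripts were tested on simulated data. Fitted folds on the log2(value + 1) scale understate the change of low rows. The scale, level, size, medians, overlap, pairing of libraries, liver column prefix and each sample left out were varied.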

Additional observations from a re-analysis of the deposited data

Results flagged for a closer look

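In 96 groups of 4 to 8 samples, covering CPM of the 4 rows described singly and the 2 scores, 16 had a highest or lowest sample far from the rest by Dixon's gap over range. With normal values the limits used give about 1 in 20. The rows were picked on these same samples and CPM need not be normal, so that rate is no background for the 16. The 2 lower-side rows had 5 such groups each, and the 2 higher-side rows 2 and 1.

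For ENSRNOT00000009879, high samples were lung air 2 (151.1 CPM, next 30.4), adipose air 8 (144.4, next 12.9), muscle air 4 (33.5, next 13.6) and nasal acrolein 14 (22.5, next 12.7), and nasal air 4 was low (7.63, next 18.7). For ENSRNOT00000085762, high samples were nasal acrolein 11 (660.0 CPM, next 385), liver air 1 (1558, next 1161), muscle air 5 (142.8, next 41.3), hippocampus air 2 (31.1, next 1.89) and hippocampus acrolein 10 (3.50, next 1.61).

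ENSRNOT00000085251 was high in liver air 1 (4.18 CPM, next 1.44) and adrenal air 8 (327.3, next 120.6), and ENSRNOT00000031025 in adrenal air 8 (35.8, next 21.9). In these 3 groups the high sample was an air sample of a row on the higher side, so it made the ratio smaller.

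The higher-side score was high in adrenal air 2 (0.57, next -0.01) and low in adipose air 8 (-0.66, next 0.08). The lower-side score was high in adipose air 8 (0.85, next -0.08). The cause of these deviations was not tested.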

How the results depend on the processing

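The number of chosen rows depended on most settings. Higher-side rows numbered 28, and 48 on the deposited normalised counts, 50 with TMM and 14 by group medians. They numbered 13 at a mean CPM of at least 10, 14 at a size limit of 1.2, and 13 when all 3 scales were required. Without the 2 livers whose column names begin with a capital, both air samples, they numbered 52. Lower-side rows numbered 48, and 19 by group medians, 27 at a mean CPM of at least 10, 18 at 1.2 and 24 on all 3 scales. Without muscle air samples 5 and 8 together, chosen after seeing the data as was the requirement of all 3 scales, the counts were 45 and 28. With 1 sample left out they ran from 12 to 57 and from 23 to 73. The remaining settings moved neither count past 1.5 times. In the tissue left out, a size limit of 1.2 gave 80% for nasal higher-side choices, 76.9% for adipose higher-side choices and 16.7% for liver lower-side choices. The deposited counts gave 85.1% and 76.7% for the higher and lower side in adrenal and 62.3% for the lower side in muscle. The limma count of 0 members became 1 in nasal epithelium with edgeR and with DESeq2 and 3 in liver with DESeq2. With 1 sample left out it ran from 0 to 1 in nasal epithelium and from 0 to 2 in liver. The nasal call was on the higher side without air 4, acrolein 11 or acrolein 14, where 1.03%, 1.22% and 0.627% of all tested rows were called higher. The liver calls were on the lower side without air 5, where 3.62% of all tested rows were called lower. The mean log2 ratio of each of the 4 rows described singly kept its sign in each of its 96 alternatives. Leaving out 1 sample changes only 1 of the 8 tissues averaged, so that was nearly fixed in advance. The side in all 8 tissues was kept in 90 of 91 such runs for each of the 2 higher-side rows. It was kept in 89 for ENSRNOT00000009879 and in 82 for ENSRNOT00000085762. The mean of ENSRNOT00000085762 ran from -0.68 to -0.26, the latter without hippocampus air 2. No paired analysis was possible because air and acrolein samples share no replicate number. Where values of 1 to 2 CPM were read, as for the hippocampus of that row, depth limits how well a mean is known. The causes of these changes were not tested.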
